A study of Mus musculus with 24 samples.

Results

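The genes described here are 39 markers of macrophages of the mouse liver, chosen by name from 54432 gene rows of the deposited expression table, of which 30589 had a value above 0 in any library. They cover the resident macrophages of the liver, called Kupffer cells, and macrophages that arrive from the blood or take up lipid. All 39 symbols were found, each in 1 row. The choice by name used no measured value, although earlier results of these data were known when it was made.

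RNA of whole liver, from about 100 mg of frozen tissue, was sequenced in 24 male C57BL/6 mice. There were 4 genotypes with 6 mice for each, namely wild type (WT), mice with Trib1 Flox/Flox (labelled Trib1-KO), mice with Cebpa Flox/Flox (Cebpa-KO) and mice with Trib1;Cebpa Flox/Flox (DKO). Every mouse, WT included, had been given AAV-Cre, an adeno-associated virus that encodes the recombinase that cuts out floxed DNA, into the peritoneum at 20 to 21 weeks of age. Livers were taken 4 weeks later, from chow-fed mice fasted for 4 h. The promoter that drove Cre is not given in the sources used here, and the series title speaks of hepatocytes. Each group held 3 mice from each of 2 cohorts, but the columns of the table are not tied to cohorts. Libraries are called by the letter and number of their column. Trib1 encodes a pseudokinase that brings the transcription factor C/EBPα, the product of Cebpa, to a ubiquitin ligase.

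Kupffer cells sit in the sinusoids and clear particles, aged red cells and complement-coated microbes from portal blood. They arise before birth and renew themselves in place, whereas macrophages derived from monocytes enter through the chemokine receptor CCR2. In fatty or injured liver, macrophages that carry TREM2 and GPNMB collect around lipid and dying cells and are known as lipid-associated macrophages. Cells of both origins share receptors for colony-stimulating factor, for antibody and for dying cells.

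The targeted genes were read first. Cebpa stood at 6019 ± 1057 normalized counts in WT (mean ± SD, n = 6, as for all group values) while Cebpa-KO had 82.2 ± 17.5 and DKO 82.4 ± 18.1. Trib1 went against its label, with 1224 ± 204 in WT and 4237 ± 358 in the libraries labelled Trib1-KO, where Cebpa was also lower at 2668 ± 359. Trib1 stood at 333 ± 158 in Cebpa-KO and 732 ± 259 in DKO. The table has 1 value per gene and does not show whether the floxed part was lost, so the wording "labelled Trib1-KO" is kept below, and the Trib1 part of DKO carries the same limit. Library totals, in units of 1e6 normalized counts, were 23.4 to 27.2. The 6 genes Adgre1, Cd68, Csf1r, Clec4f, Vsig4 and Timd4, taken as the check on macrophages, were above 0 in every group and summed to 4256 to 7509 normalized counts in WT, while 6 hepatocyte markers summed to between 1500739 and 2296247.

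The macrophage genes were higher in the libraries labelled Trib1-KO than in WT. Of the 39 members 32 rose and none fell (limma adjusted p under 0.05 over the 19810 genes tested), where 11.8% of all genes tested rose and 10.9% fell (22.7% in either direction). The median log2 fold change of the members was 1.00, against 0.01 over all genes tested, and 20 members had an estimate of at least 1. In 24 members every library labelled Trib1-KO was above every WT library and in 1 member every one was below, against 6.26% and 5.71% of all genes tested. All 39 members passed the filter of a mean of at least 1 normalized count. The members that did not pass the test were Timd4, Marco, Cd163 and Mrc1 of the resident genes, Itgam, Spp1 and Tlr4. In bulk tissue more cells of a type and more RNA of these genes per cell cannot be told apart.

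Other cell types and the composition of the libraries moved in the same comparison, in which 11.8% of all genes tested rose and 10.9% fell. The 6 hepatocyte markers summed to 527462 to 674005 normalized counts in the libraries labelled Trib1-KO, all below WT. Alb, albumin, made up most of that sum, and 4 of the 6 fell, while Hnf4a at -0.02 ± 0.10 and Tat at -0.09 ± 0.28 did not pass. The Mup genes, which encode the major urinary proteins that hepatocytes secrete, took 24.05% of the counts there against 7.02% in WT. Scaled to totals that leave the Mup genes out, the median of all genes moved to 0.24 and that of the members to 1.25, and 35 members were higher. The share of all genes that rose with this scaling was not counted. The 11 neutrophil markers summed to 66.2 to 154 in WT, with 2 of them at 0 in all WT libraries, and to 137 to 421 in the libraries labelled Trib1-KO, where 3 of the 9 tested rose. The 10 T and NK cell markers summed to 48.7 to 228 and 97.7 to 433, with 4 of 10 higher. The 6 dendritic cell markers, among them Flt3 and Zbtb46, summed to 225 to 280 and 293 to 414 without overlap, with 3 of 6 higher. Sums of the 8 endothelial markers, at 7196 to 8555 and 7822 to 8775, and of the 8 stellate cell markers, at 4365 to 6509 and 5117 to 5911, overlapped, with 3 higher and 1 lower of the former and 2 higher of the latter. The 7 B and plasma cell markers summed to 356 to 548 and 259 to 452, with 1 higher and 1 lower. The part of these other cells in the rise of the members was not tested.

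Resident and recruited genes were set side by side with 3 genes of each kind. The resident genes were Clec4f, a lectin found on Kupffer cells (ENSMUSG00000014542.3, chromosome 6, 83644542 to 83656187, GRCm38), Timd4, a receptor for the phosphatidylserine of dying cells (ENSMUSG00000055546.6, chromosome 11, 46810800 to 46844332), and Vsig4, a complement receptor (ENSMUSG00000044206.3, chromosome X, 96247203 to 96293438). The recruited or lipid-associated genes were Ccr2 (ENSMUSG00000049103.14, chromosome 9, 124101950 to 124113557), Trem2, a lipid-sensing receptor (ENSMUSG00000023992.14, chromosome 17, 48346401 to 48354147), and Gpnmb, a glycoprotein of lysosomes and the cell surface (ENSMUSG00000029816.10, chromosome 6, 49036546 to 49070929).

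Clec4f ran from 1861 over a median of 2344 to 2871 normalized counts in WT and from 2589 over 3487 to 3895 in the libraries labelled Trib1-KO. It rose by 0.54 ± 0.12 on the log2 scale (standard error, as after all log2 fold changes; limma adjusted p = 0.00162), although the lowest of these libraries lay within the WT range. Vsig4 ran from 599 over 729 to 832 in WT and from 992 over 1086 to 1247 in the libraries labelled Trib1-KO, without overlap, a log2 fold change of 0.60 ± 0.11 (limma adjusted p = 0.000182). Timd4, which marks Kupffer cells of embryonic origin, was the resident gene of these 3 that did not pass. It ran from 134 over 172 to 231 in WT and from 167 over 199 to 257 in the libraries labelled Trib1-KO, a log2 difference of 0.21 ± 0.13 with a 95% interval from -0.06 to 0.49 (limma adjusted p = 0.285). With the Mup-free scaling Timd4 was 0.46 higher and passed (limma adjusted p = 0.00962), but that scaling moved the median of all genes to 0.24.

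Ccr2 ran from 27.9 over 34.8 to 54.0 in WT and from 59.4 over 95.0 to 121 in the libraries labelled Trib1-KO. The groups did not overlap, and the log2 fold change was 1.30 ± 0.27 (limma adjusted p = 0.00082). Trem2 ran from 5.53 over 17.0 to 24.9 in WT and from 55.7 over 86.5 to 115 in the libraries labelled Trib1-KO, again without overlap, a log2 fold change of 2.54 ± 0.37 (limma adjusted p = 1.14e-05). Gpnmb was barely read in WT, with values of 0.946 to 5.71 around a median of 3.86. In the libraries labelled Trib1-KO it ran from 132 over 217 to 348, so that the ratio of group means was 64.6 and the log2 fold change 5.71 ± 0.64 (limma adjusted p = 2.31e-07). The WT mean behind that ratio rests on few reads, and with a pseudocount of 10 the log2 fold change was 4.15.

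The same 6 genes were then read in Cebpa-KO and DKO. Clec4f was 2723 ± 500 in Cebpa-KO and 2821 ± 346 in DKO, Timd4 191 ± 19.3 and 199 ± 33.0, and Vsig4 869 ± 130 and 852 ± 126. None of the 6 genes passed against WT in either group. Ccr2 was 46.2 ± 17.6 in Cebpa-KO and 39.9 ± 17.6 in DKO, and its 95% interval against WT reached from -0.31 to 0.81 and from -0.49 to 0.63 on the log2 scale. Trem2 stood at 10.7 ± 5.21 and 17.1 ± 7.32, against 15.4 ± 7.66 in WT. Gpnmb had means of 13.1 ± 15.9 in Cebpa-KO and 7.64 ± 10.2 in DKO, against 3.78 ± 1.81 in WT. Gpnmb differed between libraries of 1 group, with 37.0 and 29.7 normalized counts in the Cebpa-KO libraries E1 and E2 and 2.16 to 3.87 in the other 4, and with 27.3 in the DKO library G1 against 1.07 to 10.1 in the rest. In these 3 libraries Gpnmb lay above all of WT but below every library labelled Trib1-KO. The DKO library at 10.1 also lay above all of WT.

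**Figure D1:**
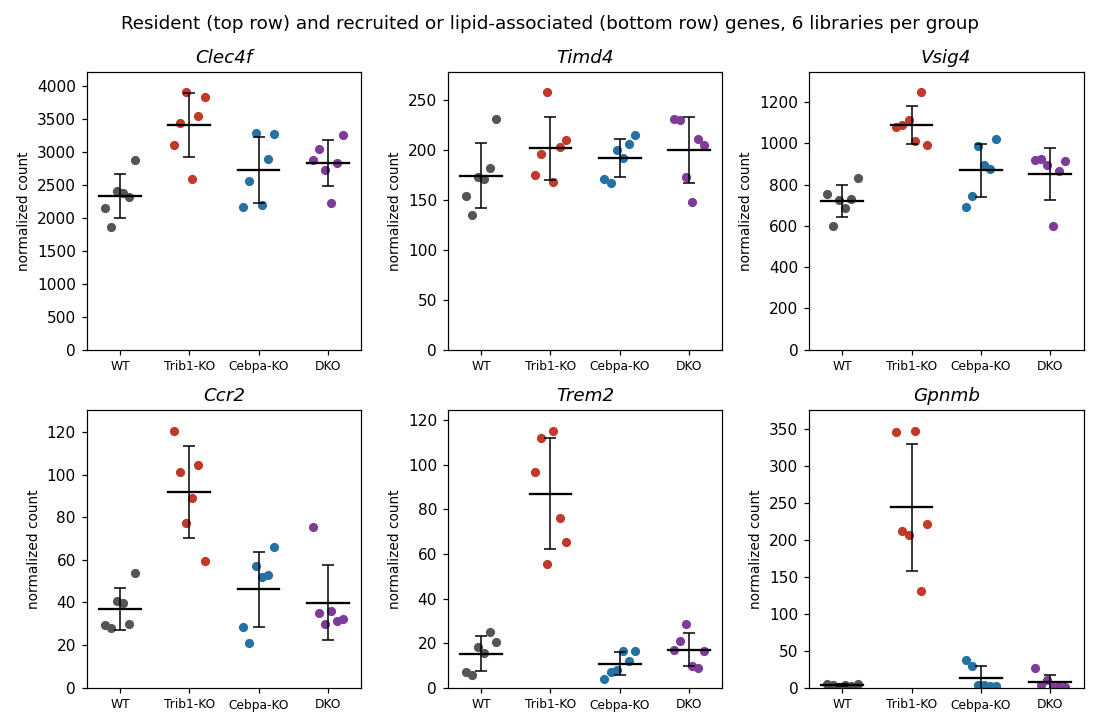
Normalized counts (vertical axes, starting at 0) of Clec4f, Timd4 and Vsig4 in the top row and Ccr2, Trem2 and Gpnmb in the bottom row, by group on the horizontal axis. Each point is 1 of 6 libraries, the long bar the group mean and the whiskers 1 SD; Gpnmb reaches 132 to 348 in the libraries labelled Trib1-KO and at most 5.71 in WT, while the Timd4 points of all 4 groups overlap.

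As a description of each library, the mean log2 value of the 3 recruited genes was subtracted from that of the 3 resident genes. The difference was 5.63 ± 0.19 in WT, with a range of 5.36 to 5.85, and 2.89 ± 0.48 in the libraries labelled Trib1-KO, with a range of 2.31 to 3.41. It was 5.62 ± 0.35 in Cebpa-KO and 5.68 ± 0.68 in DKO, where library G1 was lowest at 4.65. The fall in the libraries labelled Trib1-KO came with higher means on both sides, since the resident mean was 9.82 against 9.36 in WT and the recruited mean 6.92 against 3.74. Their ranges of the recruited mean, 3.28 to 4.32 in WT and 6.59 to 7.33 in the libraries labelled Trib1-KO, were apart, whereas those of the resident mean, 9.06 to 9.68 and 9.57 to 10.0, met.

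**Figure D2:**
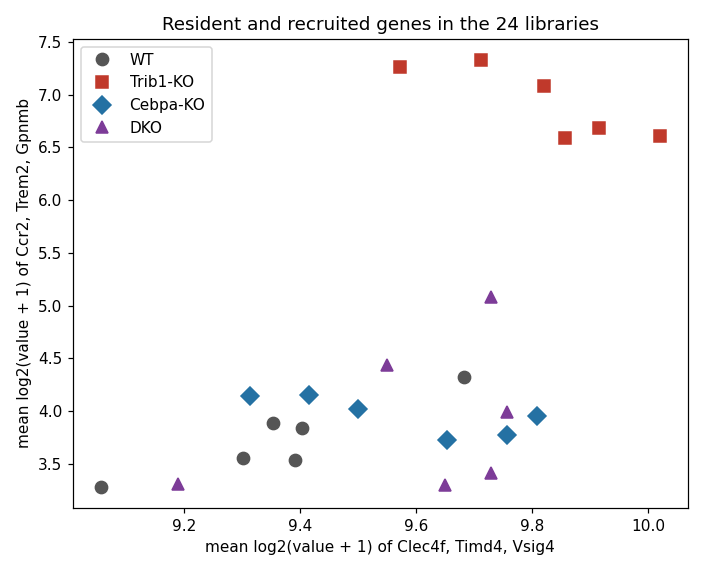
Mean of log2(value + 1) over Clec4f, Timd4 and Vsig4 (horizontal axis) against that over Ccr2, Trem2 and Gpnmb (vertical axis), 1 point for each of the 24 libraries, with colour and shape for the group. The 6 libraries labelled Trib1-KO lie between 6.59 and 7.33 on the vertical axis, above the 18 others, which reach at most 5.08.

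In the libraries labelled Trib1-KO, 5 of the 9 resident Kupffer cell genes rose, with a median log2 fold change of 0.54. Cd5l, a secreted scavenger protein also called AIM, ran from 1595 over 1919 to 2938 in WT and from 3597 over 3968 to 4674 in the libraries labelled Trib1-KO. It rose by 1.00 ± 0.15 (limma adjusted p = 1.11e-05) without overlap. Siglec1, a sialic acid receptor, rose by 0.76 ± 0.14 (limma adjusted p = 0.000223), and Folr2, a folate receptor of tissue macrophages, by 0.80 ± 0.20 (limma adjusted p = 0.00451). Cd163, the haemoglobin scavenger receptor, was 867 ± 73.6 in WT and 1066 ± 179 in the libraries labelled Trib1-KO, and Mrc1, the mannose receptor, 1516 ± 74.2 and 1671 ± 113. Neither passed the test as deposited. Both passed with the Mup-free scaling, which moved the median of all genes to 0.24. Marco, a scavenger receptor for bacteria, stood at 175 to 363 in 5 WT libraries and at 1076 in B3, and at 238 to 372 in 5 libraries labelled Trib1-KO and at 848 in C3. A single library in each group thus held the high Marco value.

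All 7 genes shared by macrophages of either origin were higher in the libraries labelled Trib1-KO and passed the test, with a median log2 fold change of 1.11. Cd68, a lysosomal membrane protein, ran from 180 over 207 to 346 in WT and from 379.5 over 568 to 863 in those labelled Trib1-KO, and rose by 1.37 ± 0.20 (limma adjusted p = 9.59e-06). Ptprc, which encodes CD45 of all leukocytes, ran from 153 over 212 to 306 and from 416 over 467 to 673, a rise of 1.20 ± 0.15 (limma adjusted p = 1.3e-06). Cybb, the catalytic subunit of the phagocyte oxidase, ran from 336 over 388 to 535 and from 712 over 873 to 1149, a rise of 1.12 ± 0.15 (limma adjusted p = 2.44e-06). In these 3 genes the groups did not overlap. Adgre1, which encodes F4/80, rose by 1.11 ± 0.23, Aif1, an actin-binding protein of phagocytes, by 0.87 ± 0.18, Csf1r, the receptor for colony-stimulating factor 1, by 0.60 ± 0.16, and Lyz2, lysozyme, by 0.55 ± 0.11. In those 4 genes WT and the libraries labelled Trib1-KO overlapped, and WT library B3 was the highest of its group for Adgre1 at 916 normalized counts. Lyz2 has the close copy Lyz1, and the Fc receptor and H2 genes have relatives too, so that their values depend on how the counting split shared reads.

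Of the 4 genes of recruited monocytes 3 rose. Besides Ccr2, Itgax, which encodes the integrin CD11c of dendritic cells and activated macrophages, ran from 15.1 over 25.5 to 94.7 in WT and from 74.8 over 110 to 346 in those labelled Trib1-KO, and rose by 2.09 ± 0.59 (limma adjusted p = 0.0109) with overlap. Cx3cr1, the fractalkine receptor, rose by 0.97 ± 0.32 (limma adjusted p = 0.0304). That call was lost when WT libraries A1, A3, B1 or B2 or the libraries D1 or D2 were left out. It was also lost with quantile normalization (limma adjusted p = 0.0772) and with no filter beyond a value above 0 (limma adjusted p = 0.0507). Itgam, the integrin CD11b of monocytes and neutrophils, was 48.6 at the median in WT and 62.1 in the libraries labelled Trib1-KO and did not pass. WT library A2 had the highest Itgam, Itgax and Cx3cr1 of its group, at 223, 94.7 and 54.4 normalized counts, next to the lowest Ccr2 value of 27.9.

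Of the lipid-associated genes 5 of 6 rose, and 2 of them, Mmp12 and Gpnmb, had the highest estimates of the 39 members. Mmp12, the macrophage elastase, ran from 10.7 over 14.4 to 36.7 in WT and from 556 over 994 to 1063 in the libraries labelled Trib1-KO, a log2 fold change of 5.73 ± 0.29 (limma adjusted p = 2.02e-13). Lgals3, galectin-3, ran from 63.4 over 82.1 to 95.0 and from 525 over 831 to 1086, a log2 fold change of 3.26 ± 0.34 (limma adjusted p = 7.16e-08). Cd9, a tetraspanin found on many cell types, rose by 1.04 ± 0.14. In each of these genes every library labelled Trib1-KO was above every WT library. Spp1, osteopontin, went the other way, with 894 over 1014 to 1236 in WT and 664 over 749 to 796 in the libraries labelled Trib1-KO. All 6 of the latter lay below WT, and the log2 difference of -0.49 ± 0.21 did not pass (limma adjusted p = 0.0972). Over the alternatives that adjusted p lay between 0.000663, with only the libraries of the 2 groups, and 0.416, with the Mup-free scaling, and it was 0.01 without the Cebpa-KO library F3.

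Spp1 is also made by cholangiocytes, the cells of bile ducts, and moved in the other groups as well. It ran from 2446 over 2734 to 7713 in Cebpa-KO and from 2233 over 3126 to 5279 in DKO, above all of WT in both. The log2 fold changes against WT were 1.66 ± 0.21 (limma adjusted p = 4.61e-06) and 1.65 ± 0.21 (limma adjusted p = 9.9e-06). Of the 6 other cholangiocyte markers on the list, Tm4sf4, which made up most of their summed level, moved like Spp1, with 1738 ± 153 normalized counts in WT, 1044 ± 139 in the libraries labelled Trib1-KO, 2877 ± 194 in Cebpa-KO and 2911 ± 479 in DKO. The other 5, Krt19, Krt7, Epcam, Sox9 and Cftr, had lower means than WT in all 3 groups. Sox9 fell by 1.88 ± 0.24 on the log2 scale in Cebpa-KO and fell by 1.75 ± 0.24 in DKO. Of the 7 markers, Spp1 included, 3 fell in the libraries labelled Trib1-KO (median log2 fold change -0.74), 2 rose and 1 fell in Cebpa-KO (median -0.23), and 2 rose and 2 fell in DKO (median -0.93). Over all genes tested 11.8%, 4.6% and 2.84% rose in these 3 comparisons, and 10.9%, 5.22% and 3.25% fell. Spp1 and Tm4sf4 were the 2 that rose in both Cebpa-KO and DKO. The part of the bile ducts in the Spp1 values was not tested.

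Genes for sensing microbes and drawing in monocytes rose in 4 of 5 cases. Cd14, the co-receptor for bacterial lipopolysaccharide, ran from 38.4 over 65.1 to 103 in WT and from 475 over 634 to 778 in those labelled Trib1-KO, and rose by 3.24 ± 0.24 (limma adjusted p = 1.44e-10). Tlr2, the receptor for bacterial lipoproteins, rose by 1.64 ± 0.14 (limma adjusted p = 2.51e-09) with 53.9 to 74.4 in WT and 156 to 265 in the libraries labelled Trib1-KO. Ccl2, the ligand of CCR2, ran from 1.05 over 6.29 to 12.4 and from 66.4 over 94.0 to 159, a rise of 4.04 ± 0.38 (limma adjusted p = 1.29e-08). Ligand and receptor of this pair were therefore both higher, by ratios of group means of 16.8 for Ccl2 and 2.49 for Ccr2. Ccl3, a chemokine for monocytes, was at most 8.09 in WT and 11.6 to 22.3 in those labelled Trib1-KO, and rose by 2.94 ± 0.50 (limma adjusted p = 9.09e-05). Tlr4, the lipopolysaccharide receptor itself, was 65.1 ± 47.4 in WT and 72.7 ± 21.8 in the libraries labelled Trib1-KO and did not pass. Cd14 and the chemokines can also be made by liver cells other than macrophages.

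All 3 Fc receptors, which bind antibody, rose, by 1.16 ± 0.24 for Fcgr1, 1.07 ± 0.19 for Fcgr4 and 0.84 ± 0.15 for Fcgr3. Fcgr1 ran from 37.2 over 61.2 to 131 in WT and from 140 over 151 to 163 in the libraries labelled Trib1-KO, without overlap. Of the receptor kinases for the uptake of dying cells, Axl ran from 401 over 545 to 1019 and from 1078 over 1341 to 1517, a rise of 1.21 ± 0.19 (limma adjusted p = 3.01e-05). Mertk, the kinase of resting tissue macrophages, rose by 0.24 ± 0.08 (limma adjusted p = 0.036), a call lost in 7 of the fits that left out a library of WT or of those labelled Trib1-KO (A1, A2, B2, C1, C3, D1 and D3). The Mertk call was also lost with no filter beyond a value above 0 (limma adjusted p = 0.0523). A fit of WT and the libraries labelled Trib1-KO alone lost it too (limma adjusted p = 0.0574). The antigen presentation genes rose together, by 1.07 ± 0.23 for H2-Aa, 0.92 ± 0.22 for H2-Ab1 and 0.86 ± 0.20 for Cd74, the invariant chain. Their WT and labelled Trib1-KO libraries did not overlap, and B cells and dendritic cells make these genes too.

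In Cebpa-KO against WT, 3 members rose and none fell, against 4.6% and 5.22% of all genes tested (9.82% in either direction). The 3 were Spp1, Mertk and Ptprc. Mertk ran from 578 over 684 to 735 in WT and from 798 over 891 to 997 in Cebpa-KO, without overlap, a rise of 0.42 ± 0.08 (limma adjusted p = 0.00135). Ptprc ran from 153 over 212 to 306 and from 256 over 310 to 394, a rise of 0.52 ± 0.15 (limma adjusted p = 0.0251) that was lost without A2, E1, E2 or F2, with the Mup-free scaling and in a fit of these 2 groups alone. The 7 B and plasma cell markers summed to 505 to 1676 normalized counts in Cebpa-KO and to 356 to 548 in WT. Of these 7, Ighm, the heavy chain of IgM, was the 1 that rose, from 307 ± 61.4 to 866 ± 426, and the part of these cells in the Ptprc value was not tested. Groups did not overlap in 3 members, all higher, against 2.52% of all genes tested that were higher and 2.65% that were lower. These were Spp1, Mertk and Mrc1, of which Mrc1 did not pass, at 0.19 ± 0.06 (limma adjusted p = 0.0516). Of the 8 endothelial markers 2 rose and none fell in Cebpa-KO, and the part of such cells in the Mrc1 value was not tested. The median log2 fold change of the members was 0.24 against 0.01 over all genes tested.

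In DKO against WT, 4 members rose and none fell, against 2.84% and 3.25% of all genes tested (6.09% in either direction). Besides Spp1 these were Ccl2 at 1.43 ± 0.38 (limma adjusted p = 0.0217), Fcgr1 at 0.81 ± 0.24 (limma adjusted p = 0.0425) and Tlr2 at 0.56 ± 0.14 (limma adjusted p = 0.0153). Ccl2 ran from 9.27 over 16.0 to 32.1 in DKO against 1.05 over 6.29 to 12.4 in WT, and its call was lost without A3 or G1. In a fit of the DKO and WT libraries alone Spp1 was the 1 member that passed, and the limma adjusted p was 0.107 for Ccl2, 0.173 for Fcgr1 and 0.0527 for Tlr2. The Fcgr1 call was also lost with the column number as a replicate block (limma adjusted p = 0.0526), with the Mup-free scaling and when any of 12 single libraries was left out. Tlr2 stood at 77.0 to 124 in DKO against 53.9 to 74.4 in WT. Spp1 and Tlr2 were the 2 members without overlap, both higher, against 1.55% of all genes tested that were higher and 1.56% that were lower. With 1 library left out the count of members that rose was between 2 (without A3 or G1) and 8 (without B3), and it was 7 without H1. The median log2 fold change of the members was 0.23 against 0.00 over all genes tested. The 3 comparisons with WT share the same 6 WT libraries.

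**Figure D3:**
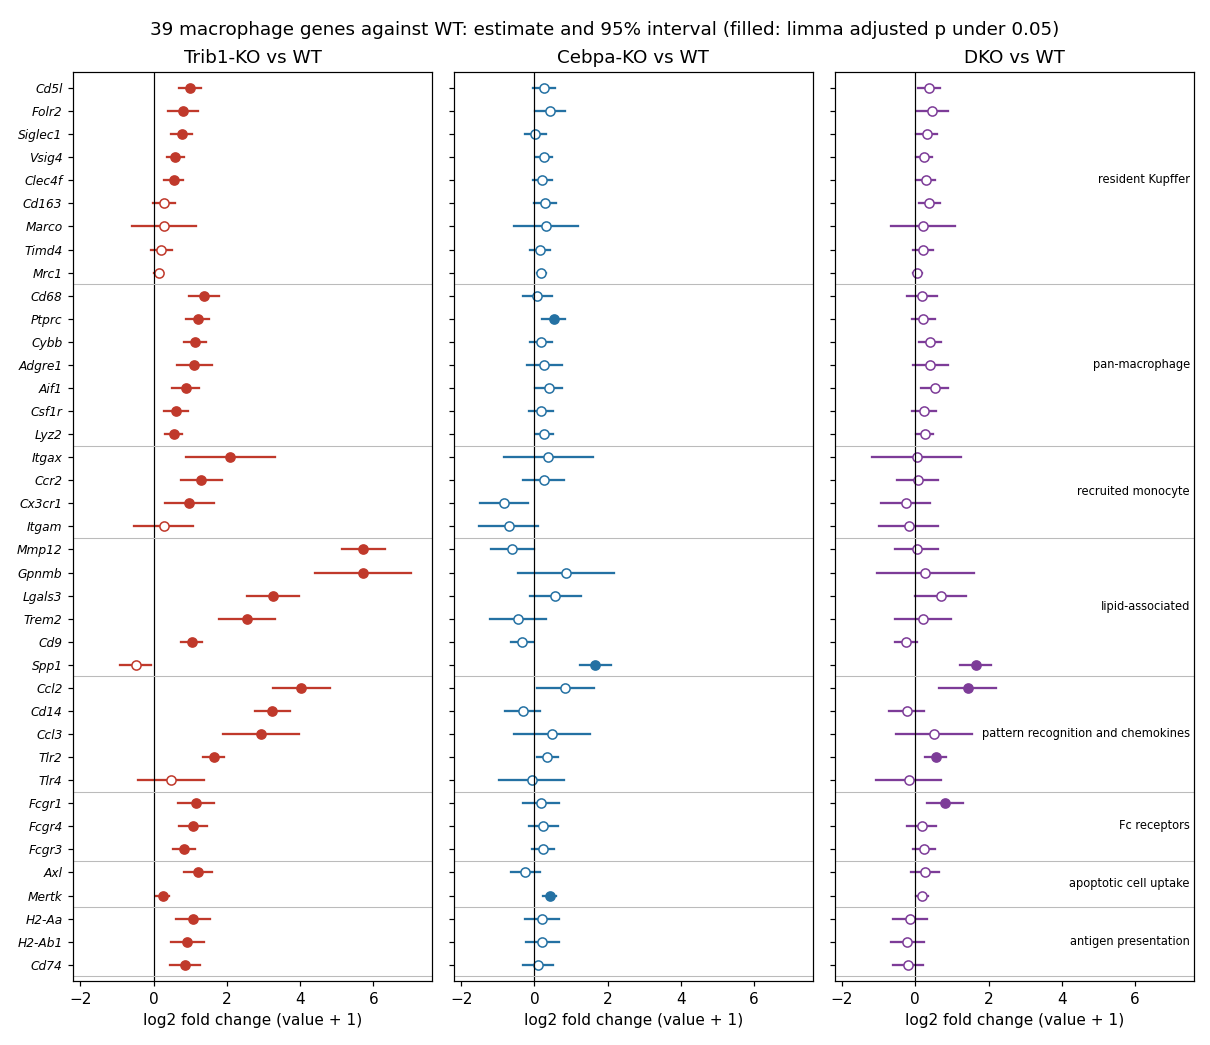
Log2 fold change on values plus 1 (horizontal axis) of the 39 genes, ordered by role, in 3 panels that set Trib1-KO (as labelled), Cebpa-KO and DKO against the same WT libraries. Points are estimates, bars 95% intervals and filled points a limma adjusted p under 0.05; 32 points are filled in the first panel, 3 in the second and 4 in the third.

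The members were next compared between groups that both had floxed Cebpa. No member passed in DKO against Cebpa-KO by limma, in either direction, where 0.0808% of all genes tested were higher and 0.121% lower (0.202% in either direction). At an unadjusted p under 0.05 there were 6 members, and the smallest adjusted p was 0.335, for Mertk. Fcgr1 was the only member whose libraries did not overlap, with 56.3 to 96.7 in Cebpa-KO and 100.2 to 141 in DKO, against 0.273% of all genes tested that were higher without overlap and 0.439% that were lower. The 95% intervals of 29 members lay within -1 to 1 on the log2 scale. The least precise was that of Gpnmb, which reached from -1.91 to 0.73.

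Against the libraries labelled Trib1-KO, 25 members were lower in DKO and 1 was higher, where 15.7% of all genes tested were lower and 14.6% higher (30.3% in either direction). The median log2 fold change was -0.73 for the members and -0.02 for all genes tested. All 25 were among the 32 members that rose in the libraries labelled Trib1-KO against WT; since both comparisons use those 6 libraries, this is no separate evidence. Mmp12 fell by 5.69 ± 0.29 (limma adjusted p = 7.25e-14), Gpnmb fell by 5.44 ± 0.64 (limma adjusted p = 2.53e-07), Cd14 fell by 3.48 ± 0.24 (limma adjusted p = 1.87e-11) and Ccl2 fell by 2.60 ± 0.38 (limma adjusted p = 6.09e-06). Mmp12 stood at 8.97 to 28.2 in DKO, and Cd14 at 33.1 to 79.9, so that both lay within or near the WT range. Trem2 fell by 2.33 ± 0.37 and Ccr2 by 1.23 ± 0.27, and of the 3 resident genes Vsig4 fell by 0.37 ± 0.11 (limma adjusted p = 0.0114), while Clec4f at -0.26 ± 0.12 and Timd4 at -0.02 ± 0.13 did not pass. The member that was higher in DKO was Spp1, by 2.14 ± 0.21. Groups did not overlap in 19 lower members and 1 higher member, against 8.74% and 8.14% of all genes tested. The 7 members that rose in the libraries labelled Trib1-KO and did not pass here were Clec4f, Folr2, Csf1r, Lyz2, Aif1, Fcgr1 and Mertk. With the Mup-free scaling, which moved the median of all genes to -0.29 and that of the members to -1.01, these 7 and Mrc1 passed as well, so that 33 members were lower. How many of all genes were lower with that scaling was not counted.

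The interaction asks whether the step from Cebpa-KO to DKO differed from the step from WT to the libraries labelled Trib1-KO. It was lower in 23 members and higher in none, against 6.22% and 6.35% of all genes tested (12.6% in either direction). Of the 23, 22 were among the members that rose in the libraries labelled Trib1-KO against WT. The term uses those same libraries, so this is no separate evidence. For Gpnmb the first step was -0.59 and the second 5.71, an interaction of -6.30 ± 0.90 (limma adjusted p = 2.35e-05). Mmp12 had -5.09 ± 0.40 (limma adjusted p = 2.73e-09), Cd14 -3.16 ± 0.33 (limma adjusted p = 2.56e-07) and Lgals3 -3.13 ± 0.48 (limma adjusted p = 5.35e-05). Trem2 had -1.88 ± 0.52 (limma adjusted p = 0.0171) and Ccr2 -1.48 ± 0.38 (limma adjusted p = 0.0105). Of the resident genes Vsig4 and Cd5l passed, with -0.63 ± 0.15 and -0.87 ± 0.21, and Clec4f at -0.48 ± 0.17 (limma adjusted p = 0.0698) did not. Mrc1 passed at -0.27 ± 0.09 (limma adjusted p = 0.0415), a call lost when any of 14 single libraries was left out. With the Mup-free scaling the median of all genes moved to -0.24 and 31 members were lower, Clec4f among them. The matching share of all genes was not counted.

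Levels of different genes were compared per kilobase of exon, from the union of exons in GENCODE M21. In WT the order began with Lyz2 at 1324 ± 273 normalized counts per kilobase, Cd74 at 1287 ± 380, Cd5l at 1025 ± 232 and Clec4f at 942 ± 134, and neighbours in this order differed by less than the larger of their SDs. Spp1 followed at 633 ± 72.8 and Vsig4 at 486 ± 52.0, and the order ended with Ccl3 at 2.76, Mmp12 at 2.41 and Gpnmb at 0.581 per kilobase. In the libraries labelled Trib1-KO the first 5 places held Cd74, Cd5l, Lyz2, Clec4f and Vsig4. Lgals3 stood at place 10 there and place 25 in WT, Cd14 at 13 and 26, and Mmp12 at 24 and 38. Trem2 kept a low place, 35 there and 36 in WT. In Cebpa-KO and DKO, Spp1 was first at 2192 ± 1240 and 2048 ± 623 per kilobase. Exon unions that include rarely used exons, such as that of Mmp12 at 7237 bases, make a level per kilobase too low.

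Promoter sequence from RefSeq (GRCm38.p6) was available for 31 of the 39 members, in 36 windows of 300 bases that run from 250 before to 50 after a transcription start. Windows were searched on both strands for AGGAAG and GAGGAA, cores bound by PU.1, the factor that myeloid cells depend on, and by other ETS factors, and for TTGCNNAA, part of the palindrome bound by C/EBP factors. AGGAAG and GAGGAA can overlap each other. Either of the ETS cores was present in 69.4% of the member windows and in 46% of all 32851 windows, and TTGCNNAA in 16.7% and 10.8%. A match is a description of the letters, not a binding site. The windows of a pair of resident genes and of 3 lipid-associated genes with large changes are shown, 5′ to 3′ on the strand of the gene, with matches in capitals.
Clec4f (chr6:83656067-83656366, minus strand): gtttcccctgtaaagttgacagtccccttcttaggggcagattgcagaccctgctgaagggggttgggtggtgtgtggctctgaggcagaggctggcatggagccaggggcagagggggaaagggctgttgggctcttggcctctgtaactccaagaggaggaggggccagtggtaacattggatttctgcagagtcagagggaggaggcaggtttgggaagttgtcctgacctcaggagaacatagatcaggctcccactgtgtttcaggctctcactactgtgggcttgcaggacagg
Vsig4 (chrX:96293389-96293688, minus strand): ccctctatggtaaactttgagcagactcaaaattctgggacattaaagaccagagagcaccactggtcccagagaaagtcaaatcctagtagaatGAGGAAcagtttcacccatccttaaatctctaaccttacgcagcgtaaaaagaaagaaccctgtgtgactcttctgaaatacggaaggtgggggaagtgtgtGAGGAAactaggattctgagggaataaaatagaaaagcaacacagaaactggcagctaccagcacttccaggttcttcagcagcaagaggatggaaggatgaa
Gpnmb (chr6:49036268-49036567, plus strand): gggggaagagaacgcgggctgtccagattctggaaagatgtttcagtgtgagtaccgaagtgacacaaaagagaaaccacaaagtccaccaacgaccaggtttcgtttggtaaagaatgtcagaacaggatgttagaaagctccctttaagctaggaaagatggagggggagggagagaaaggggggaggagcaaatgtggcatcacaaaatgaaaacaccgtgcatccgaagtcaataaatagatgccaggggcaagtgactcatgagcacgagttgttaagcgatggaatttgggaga
Trem2 (chr17:48346151-48346450, plus strand): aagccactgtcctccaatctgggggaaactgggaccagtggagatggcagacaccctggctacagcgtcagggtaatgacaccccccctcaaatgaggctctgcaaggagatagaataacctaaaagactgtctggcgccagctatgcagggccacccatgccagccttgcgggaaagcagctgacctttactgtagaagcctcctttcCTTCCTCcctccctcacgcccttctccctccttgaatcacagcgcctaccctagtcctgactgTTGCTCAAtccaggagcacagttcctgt
Mmp12 (chr9:7344147-7344446, plus strand): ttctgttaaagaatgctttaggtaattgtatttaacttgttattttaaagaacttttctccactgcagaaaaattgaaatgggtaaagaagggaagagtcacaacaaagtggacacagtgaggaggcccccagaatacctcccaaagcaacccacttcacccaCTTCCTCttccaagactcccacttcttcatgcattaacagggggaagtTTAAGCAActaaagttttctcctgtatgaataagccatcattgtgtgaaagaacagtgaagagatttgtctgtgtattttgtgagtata
The Clec4f and Gpnmb windows held no match. Vsig4 had GAGGAA at 155 and 53 bases before the start. Trem2 had both ETS cores, overlapping and on the other strand, at 41 and 40 bases before the start, and a TTGCNNAA match 22 bases after it. Mmp12, in the first of its 2 windows, had the same overlapping pair at 87 and 86 bases before the start and TTGCNNAA on the other strand at 39 bases before it. The second Mmp12 window, which is not printed, held no match. Timd4 and Ccr2, whose windows are not printed, held no match either. Genes with and without matches were thus found among both the resident and the recruited genes.

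Genes related to macrophages were also read from 7 lists that hold no member. In whole liver their RNA can come from other cells too, and its source was not tested. Over all genes tested, 11.8% rose and 10.9% fell in the libraries labelled Trib1-KO against WT. Of 12 myeloid transcription factors 7 rose and 2 fell in that comparison. Spi1, which encodes PU.1, rose by 0.90 ± 0.18 (limma adjusted p = 0.000571) and Spic, a factor of red pulp and iron-recycling macrophages, by 0.99 ± 0.25 (limma adjusted p = 0.00483), while Cebpa fell by 1.16 ± 0.16. Of 14 ligands tested 6 rose and 1 fell, among them the chemokines Ccl7 at 3.93 ± 0.39, Ccl4 at 3.30 ± 0.47 and Ccl6 at 1.48 ± 0.15. The growth factors of macrophages, Csf1 at 0.58 ± 0.24 and Il34 at 0.26 ± 0.38, did not pass. Of 12 complement C1q and scavenger receptor genes 9 rose and 2 fell, with Cd36, the fatty acid transporter, at 2.07 ± 0.27, Msr1 at 1.02 ± 0.14 and Colec12 at 0.87 ± 0.11. Hepatocytes and endothelium express several genes of that list.

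Of 11 signalling adaptors and oxidase subunits 9 rose and none fell in the libraries labelled Trib1-KO. Over all genes tested 11.8% rose there and 10.9% fell. Those with the smallest adjusted p were the kinase Syk at 1.12 ± 0.15, the adaptor Tyrobp, through which TREM2 signals, at 0.90 ± 0.13 and the oxidase subunit Cyba at 0.83 ± 0.12. Of 14 genes of lysosomes and lipid handling 6 rose and 1 fell, with the cathepsins Ctss at 0.91 ± 0.13 and Ctsd at 0.54 ± 0.06, and the haem-degrading Hmox1 at 0.69 ± 0.12. Of 8 class II and costimulation genes 6 rose, with Cd80 at 1.93 ± 0.37, Cd86 at 1.29 ± 0.18 and H2-Eb1 at 1.06 ± 0.22. Of 9 cytokine genes tested 3 rose and 1 fell, with Il1rn, the interleukin-1 antagonist, at 2.66 ± 0.45, Tnf at 2.19 ± 0.47 and Il18 at -0.44 ± 0.11. The medians of these 7 lists ran from 0.33 for the cytokines to 1.05 for class II and costimulation, against 0.01 over all genes tested. In DKO against the libraries labelled Trib1-KO, 6 of the 12 transcription factors fell and 2 rose, where 15.7% of all genes tested were lower and 14.6% higher. Cebpa, which is floxed in DKO, was 1 of those 6, so its fall was set by the genotype. Of 12 C1q and scavenger receptor genes 9 fell and 1 rose, and of 14 ligands 7 fell and 1 rose. Of 11 adaptors and oxidase subunits 7 fell, and of 14 lysosome and lipid genes 8 fell and 3 rose. Of 8 class II and costimulation genes 6 fell, and of 9 cytokines 4 fell and 1 rose.

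The members also varied among libraries of 1 group. WT library B3 was the highest of its 6 in 24 of 39 members, although in only 19.8% of all genes tested, and it was the highest in 6 of 9 resident, 6 of 7 shared and 5 of 6 lipid-associated genes. In Cebpa-KO, F3 was highest in 18 members and E1 lowest in 20, against 18.5% and 21.1% of all genes tested. In DKO, H1 was lowest in 18 members, including 8 of 9 resident genes, and H2 was lowest in 15. Over all genes tested H1 was lowest in 14.7% and H2 in 18.9%. H1 and H2 differed by role, since the 5 genes of pattern recognition and chemokines averaged 0.65 below the group mean in H2 and 0.22 below it in H1 on the log2 scale, and the resident genes 0.02 and 0.54 below. Among the libraries labelled Trib1-KO, C3 averaged 0.34 above the group in resident genes and 0.45 below it in pattern recognition and chemokines, and D1 0.21 below and 0.48 above. The antigen presentation genes of DKO were 0.94 above the group mean in G1, the library with the highest Ccr2 and Gpnmb of that group. Genes of recruited monocytes averaged above the group mean in all C, F and G libraries and below it in all D, E and H libraries. In WT, letters A and B were mixed, and no other role was split by letter in all of those groups. What the letter marks is not given, and its part was not tested. When B3, E1 and E2 were left out together, a choice made after their values were seen, 32 members still rose in the libraries labelled Trib1-KO, 6 rose in Cebpa-KO and 6 in DKO.

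**Figure D4:**
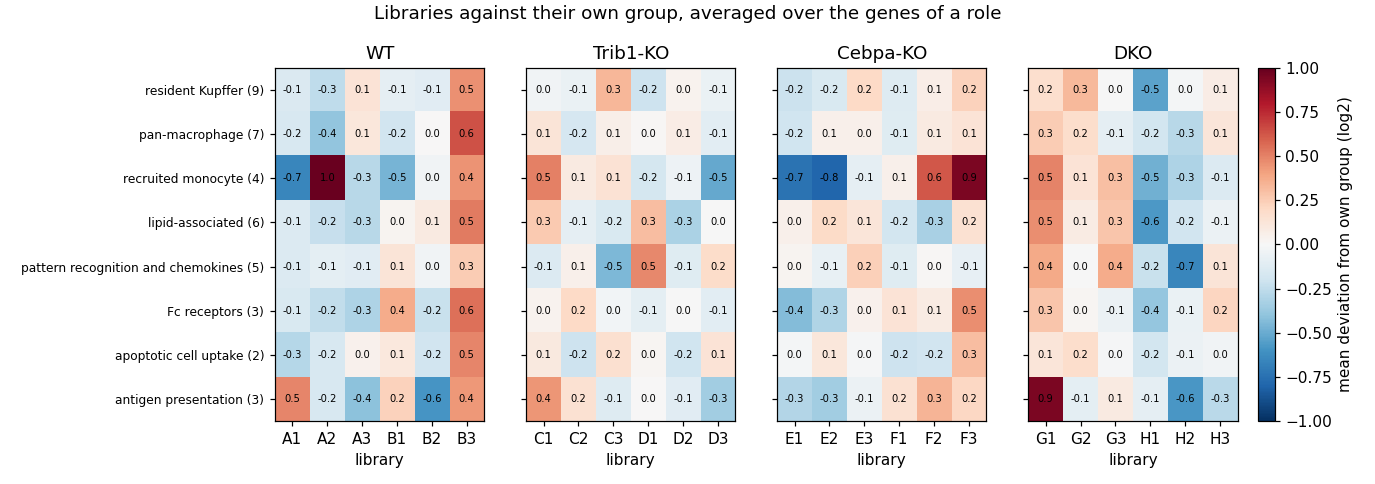
Deviation of each library from the mean of its own group on the log2 scale, averaged over the genes of a role (rows, with the number of genes in brackets), for the 6 libraries of each group (columns). Red is above and blue below the group mean; WT library B3 is above its group in all 8 roles, and DKO library H1 is 0.54 below in the resident genes.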

How the data were processed

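The table analysed holds 1 value per gene and library for whole-liver RNA from stranded poly(A) libraries. Per the submitters' processing notes the authors used Salmon, DESeq2 and GRCm38.p6, with no versions given. The deposited values are signal: they resemble Salmon estimates for each gene after division by a library's size factor, judged from the values. Of the low values, 66.9 to 72.8% were within 0.02 of whole multiples of a library's smallest step, too few to recover whole reads, so the plan's test for counts was not used. The steps correspond to an estimated 18.6 to 34.3 times 1e6 reads per library, and no 2 columns held identical values. Of the identifiers, 54050 were found in GENCODE M21.

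Values were analysed as log2(value + 1) with limma 3.58.1 in R 4.3.3 (intensity trend), in 1 model with 4 group means and all 24 libraries, for 19810 genes whose mean value was 1 or more. P-values are 2-sided and were adjusted over those genes by the Benjamini-Hochberg method, and an adjusted p under 0.05 was called. The procedure was run on simulated data with independent libraries and 200 changed genes, all above the low WT levels of Gpnmb, Ccl3 and Ccl2. That run does not cover calls of genes so low, or libraries that vary together. The labels name separate mice, but the column headers tie no column to a mouse or cohort, so no cohort term could be fitted. The column letters are A and B (WT), C and D (labelled Trib1-KO), E and F (Cebpa-KO) and G and H (DKO). They divide each group evenly, the labels do not say what they mark, and no term for them was fitted. Ratios are of group means. All 39 members are accounted for, up to 4 per role with the smallest adjusted p in full, and up to 3 per further list; Csf1 and Il34 were named beyond that rule, after their values were seen. Members and lists were chosen with earlier results of these data known. Alternatives were other pseudocounts, filters, scalings and models, a block for the column number, and leaving out libraries.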

Additional observations from a re-analysis of the deposited data

Results flagged for a closer look

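In 10 of the 156 groups of 6 examined (39 genes in 4 groups), 1 library stood far from the other 5; chance gives this in about 1 of 20 groups. In WT it was Mmp12 in B3, at 36.7 normalized counts. In the libraries labelled Trib1-KO these were Lyz2 in D2 at 2796, Marco in C3 at 848, Mmp12 in C2 at 556 and Spp1 in D3 at 664. In Cebpa-KO they were Ccl2 in F2 at 4.96 and Spp1 in F3 at 7713. In DKO they were Ccr2 in G1 at 75.5 and, both in library H1, Cd163 at 703 and Vsig4 at 599.

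The step from Cebpa-KO to DKO differed from the step from WT to the libraries labelled Trib1-KO in 23 members, by the limma interaction term. All were lower, where 6.22% of all genes tested were lower and 6.35% higher. Of these members 22 had risen in the libraries labelled Trib1-KO against WT, libraries that the term also uses. The interaction on the log2 scale was -6.30 for Gpnmb, -5.09 for Mmp12, -3.13 for Lgals3, -1.88 for Trem2 and -0.96 for Cd9 among the lipid-associated genes, and -1.48 for Ccr2. It was -3.44 for Ccl2, -3.16 for Cd14, -2.92 for Ccl3 and -1.44 for Tlr2. Genes shared by macrophages had -1.51 (Ptprc), -1.26 (Cd68), -0.92 (Cybb) and -0.56 (Lyz2). Antigen presentation genes had -1.41 (H2-Aa), -1.35 (H2-Ab1) and -1.16 (Cd74), and Fc receptors -1.14 (Fcgr4) and -0.84 (Fcgr3). The resident genes had -0.87 (Cd5l), -0.63 (Vsig4) and -0.27 (Mrc1), and Mertk -0.48.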

How the results depend on the processing

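No member that was called turned its direction under any alternative. Fitted with only the libraries of the groups compared, 1 member was lower in the libraries labelled Trib1-KO against WT (Spp1) and 1 was higher in DKO against WT (Spp1; Ccl2, Fcgr1 and Tlr2 were lost). Leaving out 1 library gave 30 to 32 members higher and 0 to 1 lower (without F3) in the libraries labelled Trib1-KO against WT, 2 to 5 higher (5 without B3) and 0 to 1 lower (without A1 or F3) in Cebpa-KO against WT, 2 to 8 higher in DKO against WT, 22 to 28 lower and 0 to 1 higher (without F3) in the interaction, and, between DKO and those labelled Trib1-KO, 24 to 27 lower. Without B3, E1 and E2 together 6 members were higher in Cebpa-KO against WT. With a pseudocount of 10 the resident minus recruited difference was 4.76 in WT, 4.82 in Cebpa-KO and 4.87 in DKO. In the libraries labelled Trib1-KO it stayed between 2.80 and 2.90 over the other pseudocounts and the Mup-free scaling. Their gap to WT was thus smaller with a pseudocount of 10. The cause of these changes was not tested. Taking the column number as a replicate block changed no call in the libraries labelled Trib1-KO or Cebpa-KO against WT, lost 1 in DKO against WT (Fcgr1), and gained 3 in the interaction and 1 in DKO against the libraries labelled Trib1-KO; the labels do not say what the number marks. A minimum mean of 10 left Ccl3 out. The fall of Adgre1 from those labelled Trib1-KO to DKO was lost without D3, G3 or H1. The low values of Gpnmb, Ccl3, Ccl2 and Trem2 in WT limit the precision of their ratios.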
